A study of Mus musculus with 16 samples.

Results

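The transcripts of 10 genes that make, load or use microRNAs, or sense the same kind of RNA, were followed through pressure overload and loss of Trbp in the mouse ventricle. The genes were Tarbp2, which encodes Trbp, its paralog Prkra, the nuclease gene Dicer1, the Argonaute genes Ago1 and Ago2, the nuclear processing genes Drosha and Dgcr8, the export receptor gene Xpo5, the silencing scaffold gene Tnrc6a, and Eif2ak2, which encodes the kinase PKR. The rule lists them by name as partners of Trbp, its paralog and its kinase target and uses no measured value, though the list was drawn up with earlier results of these data known. They are 10 of the 55573 genes in the deposited table, and all 10 passed the filter on low counts that left 19955 genes to test. RNA came from 16 male mice, and 4 hearts were sequenced in each of 4 groups. Every mouse, controls included, carried floxed Trbp alleles (Trbp-fl/fl) and the αMHC-MerCreMer transgene, a Cre recombinase that the α-myosin heavy chain promoter restricts to cardiomyocytes and that tamoxifen activates. Control mice received corn oil and Trbp-cKO mice received tamoxifen at 30 mg/kg, daily for 5 days from 4 weeks of age. Sham surgery or transverse aortic constriction (TAC), a narrowing of the aorta that overloads the left ventricle, followed, and hearts were taken 8 weeks after surgery at 16 weeks of age. No hearts given tamoxifen without the transgene were analysed here, so an effect of tamoxifen or of active Cre cannot be told apart from an effect of the deletion. The floxed exons are not given in the sources used here.

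MicroRNAs are cut from long transcripts in 2 steps. In the nucleus, the RNase III enzyme Drosha and its partner Dgcr8, which holds the double-stranded stem, release a hairpin that exportin 5 (Xpo5) carries to the cytoplasm. There Dicer1, with Trbp or its paralog Pact (Prkra) bound to its helicase domain, cuts the hairpin to a short duplex, and chaperones help load it into an Argonaute protein. Argonaute then recruits a TNRC6 scaffold, which calls in deadenylases and represses the target. Trbp and Pact share double-stranded RNA binding domains and meet a second partner through them, the kinase PKR. PKR phosphorylates the translation factor eIF2α when it binds double-stranded RNA. Trbp holds PKR back and Pact can activate it.

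The sequences shown here are the ones the members' rows touch most directly. The first set is the hairpin of miR-1306, because it lies inside an exon of Dgcr8 and its row in the table sits within the Dgcr8 row. Drosha and Dgcr8 are known to cut the Dgcr8 transcript itself, and this hairpin is one of the stems in it. Its position in GRCm38 is chr16:18284239-18284317 on the minus strand, in an exon of 4 of the 10 annotated Dgcr8 transcripts and in the coding part of exon 2 in 2 of them. The sequences are from RefSeq on GRCm38.p6, and capitals mark the seed (bases 2 to 8) of the mature strands.
Mir1306 hairpin: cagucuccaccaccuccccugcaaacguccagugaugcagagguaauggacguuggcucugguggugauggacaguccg
mmu-miR-1306-5p: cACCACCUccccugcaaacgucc
mmu-miR-1306-3p: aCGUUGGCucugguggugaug
The libraries were made from polyadenylated RNA, so mature microRNAs were not measured. The Mir1306 row was listed at 1 in all 16 hearts.

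The second set is the promoter of Eif2ak2 beside that of Ifih1, which encodes another cytoplasmic sensor of double-stranded RNA. Eif2ak2 is a classical interferon-stimulated gene, and genes of that kind often carry an interferon-stimulated response element near the start. The letters AAANNGAAA, part of that element, were searched on both strands in windows of 300 bases, 250 before to 50 after each start. Of 32851 RefSeq promoter windows of that length on GRCm38.p6, 3466 (10.6%) held the letters. Windows were found for 9 of the 10 members, and those of Eif2ak2 and Tnrc6a held them. Among the 6 of 10 genes of double-stranded RNA sensing with a window, 5 held them. The window of Eif2ak2 is chr17:78882523-78882822 on the minus strand and that of Ifih1 is chr2:62646206-62646505 on the minus strand. Capitals mark the match, which in both lies within the 50 bases after the start.
Eif2ak2 promoter: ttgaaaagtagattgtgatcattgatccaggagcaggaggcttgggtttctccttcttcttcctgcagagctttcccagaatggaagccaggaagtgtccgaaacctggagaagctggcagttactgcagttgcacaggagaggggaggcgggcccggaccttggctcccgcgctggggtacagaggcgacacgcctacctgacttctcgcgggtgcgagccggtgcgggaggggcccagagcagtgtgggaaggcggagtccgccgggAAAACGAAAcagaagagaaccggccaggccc
Ifih1 promoter: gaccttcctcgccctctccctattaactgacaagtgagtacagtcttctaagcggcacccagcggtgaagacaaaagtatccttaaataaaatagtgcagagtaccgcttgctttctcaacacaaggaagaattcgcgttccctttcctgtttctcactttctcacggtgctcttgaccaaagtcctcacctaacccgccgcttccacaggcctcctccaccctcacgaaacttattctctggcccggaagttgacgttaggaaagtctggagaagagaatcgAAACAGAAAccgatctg
A match of letters is a description and is not a measured binding site.

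Total counts lay between 45166994 and 68274222 per heart, and each member had between 358 and 6025 counts in every heart. Libraries of control TAC 1 and 2 stood apart, with 38.2 and 38.8% of counts on mitochondrial genes against 18.2 to 26.3% in the other 14 hearts, and member results that changed their call or sign without them are given both ways. The summed level of 8 cardiomyocyte markers (Myh6, Ryr2 and others) was 52360 to 56246 CPM in sham and 21130 to 52027 in TAC hearts of control mice, and 44850 to 55745 in sham and 32200 to 53069 in TAC hearts of Trbp-cKO mice, so the ventricular muscle of the label was present. The 3 atrial genes Myl7, Sln and Myl4 summed to 1.85 to 2.12, 1.21 to 2.15, 2.1 to 2.95 and 4.33 to 7.85 CPM in control sham, control TAC and the sham and TAC hearts of Trbp-cKO mice. Of the 2 of them that were tested, 1 passed as higher in the Trbp-cKO TAC hearts than in control TAC and in Trbp-cKO sham hearts, Myl7 and Sln stayed between 0 and 0.479 CPM, and Myl4 reached 7.2 CPM. These are whole-ventricle libraries, in which fewer cells of a type and less RNA per cell cannot be told apart. Of 6 fibroblast markers 2 rose in control TAC hearts, 1 rose in each Trbp-cKO group over its control, and their sums were 1460 to 1589, 1594 to 2261, 1617 to 2165 and 1544 to 2482 CPM in the same order of groups. Of 4 smooth muscle markers 1 fell with TAC in control mice, 1 rose with deletion in sham and 2 in TAC hearts, and their sums were 208 to 346, 130 to 187, 444 to 672 and 394 to 835 CPM. Acta2 carried these sums, with group means of 220, 91.2, 499 and 466 CPM, while Myh11, the smooth muscle myosin, averaged 32.6, 36.3, 33.4 and 32.8. None of 5 endothelial markers passed in any comparison, but their sums were 557 to 677, 553 to 1125, 502 to 881 and 466 to 853 CPM, and within the control TAC group they were 1106 and 1125 in hearts 1 and 2 against 591 and 553 in hearts 3 and 4. From Trbp-cKO sham to Trbp-cKO TAC hearts, 2 of 4 smooth muscle and 1 of 6 fibroblast markers rose, and 1 of 8 cardiomyocyte markers fell. In the interaction 1 fibroblast marker passed, with a value below 0. The part of cell makeup in the differences below was not tested.

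Levels between genes were compared as CPM per kilobase of annotated exon (CPM being counts scaled to TMM-adjusted library sizes, divided by the length of all exons of the gene). In control sham hearts the order ran from Tarbp2 at 7.08 ± 0.253 (SD, n = 4), through Drosha at 6.85 ± 0.339, Prkra at 6.1 ± 0.384, Tnrc6a at 4.76 ± 0.272, Xpo5 at 4.33 ± 0.288, Ago2 at 3.98 ± 0.25, Dicer1 at 2.62 ± 0.103, Ago1 at 2.38 ± 0.163 and Eif2ak2 at 2.12 ± 0.109, to Dgcr8 at 1.8 ± 0.13. Neighbours whose hearts overlapped were Tarbp2 and Drosha, Tnrc6a and Xpo5, Xpo5 and Ago2, Dicer1 and Ago1, and Ago1 and Eif2ak2. Drosha stood above Prkra, Prkra above Tnrc6a, Ago2 above Dicer1 and Eif2ak2 above Dgcr8 in every control sham heart. On this scale the Drosha transcript was thus well above that of its partner Dgcr8, while Dicer1 was below both of its cofactors. The length counts exons of isoforms that the heart may not use, so this order is approximate.

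**Figure D1:**
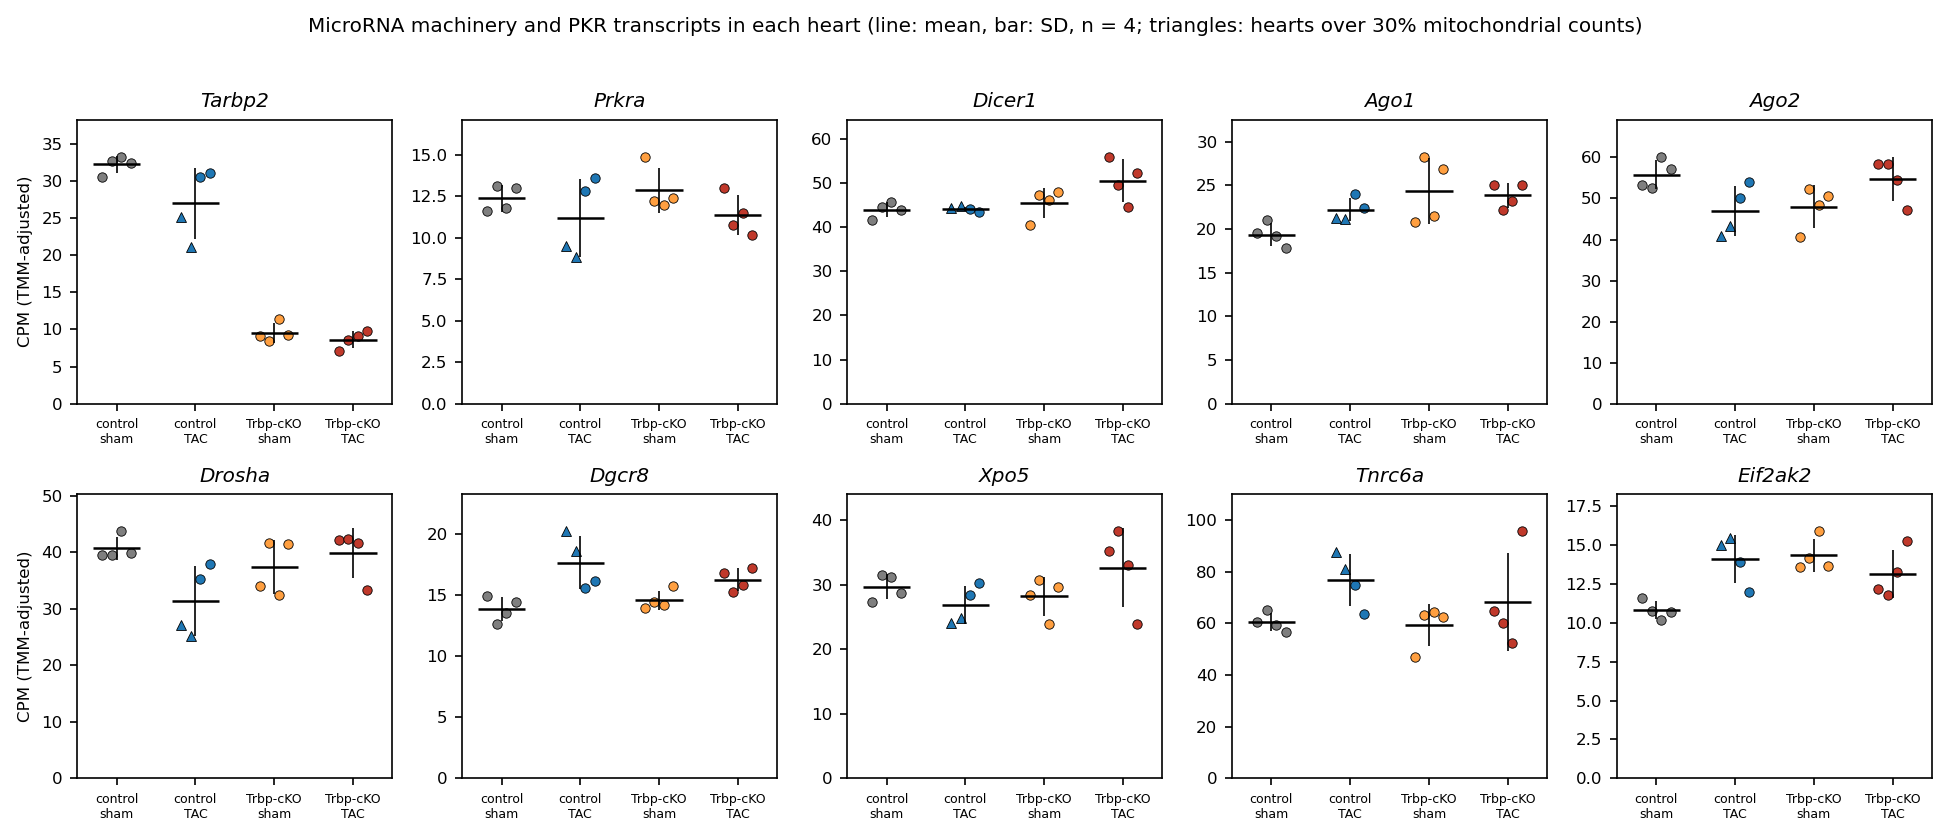
CPM of the 10 genes in each of the 16 hearts, by group, with the mean (line) and SD (bar) of 4 hearts. Tarbp2 lay at 21.1 to 33.3 CPM in the 8 control hearts and at 7.14 to 11.4 in the 8 Trbp-cKO hearts, while the other 9 genes kept levels of the same order in all groups.

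Between Trbp-cKO and control hearts 1 member changed and 9 did not pass. A gene passed where its adjusted p was at most 0.05 in edgeR's quasi-likelihood test, with Benjamini-Hochberg adjustment over all genes tested. The Trbp-cKO sham group against its control gave 1 member lower (Tarbp2) and 0 higher, beside 1.68% of all genes called, 1.02% higher and 0.666% lower. At an unadjusted p under 0.05 there were 3 members, Tarbp2, Ago1 and Eif2ak2, beside 13.7% of all genes at that p. The Trbp-cKO TAC group against its control again gave Tarbp2 lower and 0 members higher, beside 5.53% of all genes, 3.88% higher and 1.65% lower. There, 3 members had an unadjusted p under 0.05 (Tarbp2, Dicer1 and Drosha), beside 21.4% of all genes. The 9 members other than Tarbp2 had a median log2 fold change of 0.05 in sham and 0.10 in TAC hearts, beside 0.01 and -0.01 over all genes.

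In control mice, 2 members passed for TAC, and neither call held under all alternatives. Control TAC against control sham hearts gave 2 members higher, Eif2ak2 and Dgcr8, and 0 lower, beside 6.29% of all genes, 4.09% higher and 2.2% lower. Each call held in 9 of 26 alternatives, and both ended without control TAC 1, without control TAC 2 and without any one of the control sham hearts. An unadjusted p under 0.05 was reached by 4 members in that comparison (Eif2ak2, Dgcr8, Ago2 and Drosha), beside 26.6% of all genes. The Trbp-cKO TAC group against Trbp-cKO sham hearts gave 0 of 10 by edgeR, beside 9.94% of all genes, 6.02% higher and 3.92% lower. At an unadjusted p under 0.05 it also gave 0, beside 23% of all genes. The interaction, which tests whether the effect of deletion differed between TAC and sham hearts, gave 0 of 10 by edgeR, beside 1.05% of all genes, 0.591% higher and 0.456% lower. At an unadjusted p under 0.05 it gave 3 members (Eif2ak2, Ago2 and Drosha), beside 15.4% of all genes. DESeq2 gave 1 member (Eif2ak2) for the interaction, beside 4.67% of all genes with that tool. The comparisons share groups of hearts, so they are not independent of each other. The summed level of the 10 genes was 319 ± 8.11 CPM in sham and 318 ± 11.1 in TAC hearts of control mice, and 294 ± 23 in sham and 319 ± 14.9 in TAC hearts of Trbp-cKO mice.

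**Figure D2:**
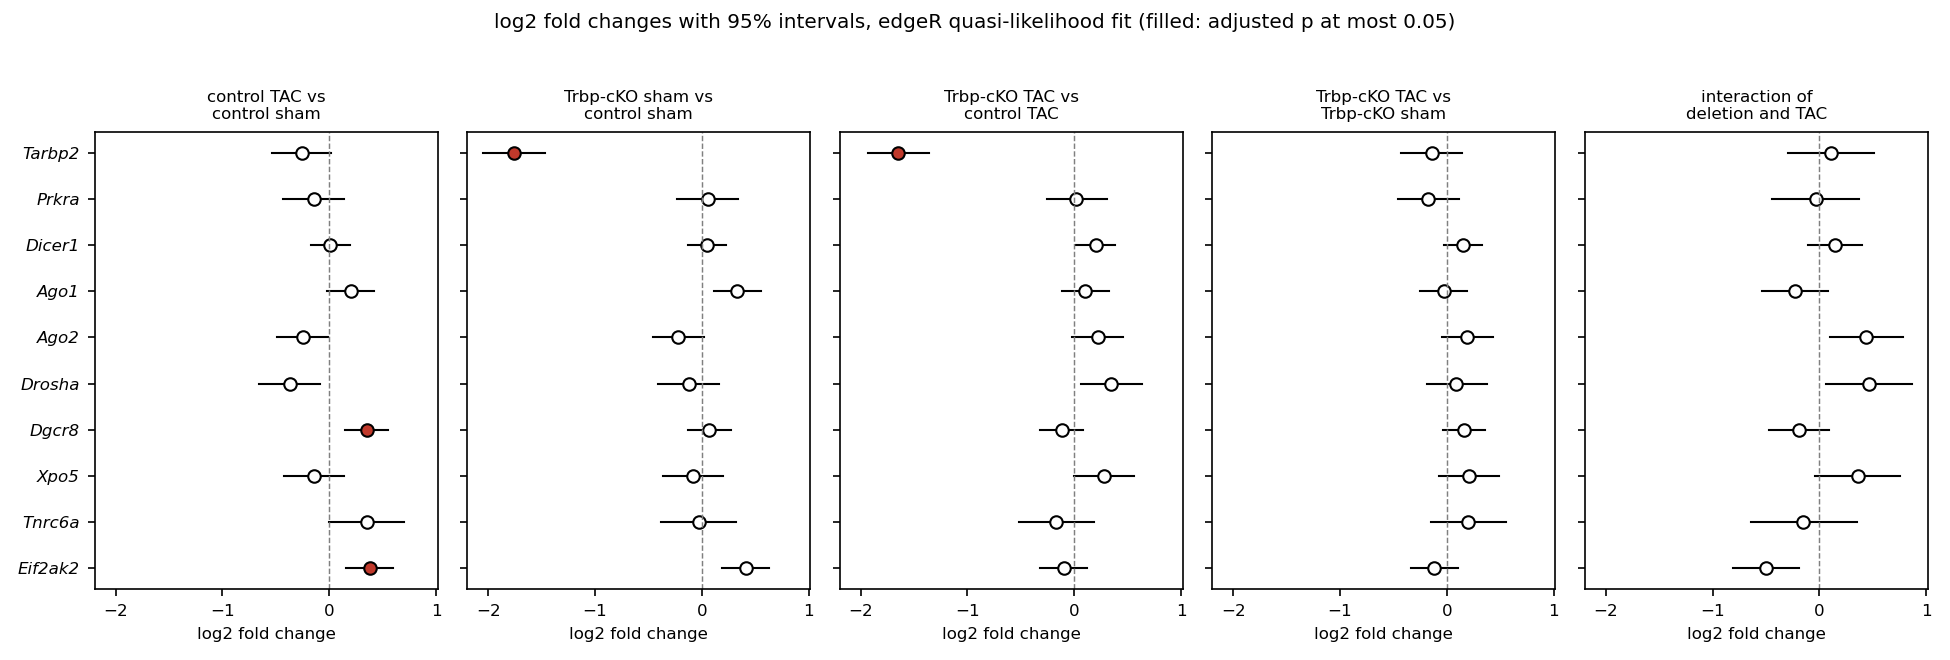
Log2 fold changes of the 10 genes (points) with 95% intervals (lines) in the 5 comparisons, from the edgeR fit. Filled points passed an adjusted p of 0.05 and are Tarbp2 in both comparisons of deletion (-1.76 and -1.65) and Dgcr8 and Eif2ak2 in control TAC against control sham (0.35 and 0.38).

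Tarbp2 (chr15:102518192-102523676, plus strand) is the targeted gene and checks the labels. It stood at 30.6, 32.7, 33.3 and 32.4 CPM in control sham hearts and at 25.2, 21.1, 30.6 and 31.1 in control TAC hearts. The Trbp-cKO sham hearts had 9.09, 8.39, 11.4 and 9.21 CPM and the Trbp-cKO TAC hearts 7.14, 8.57, 9.05 and 9.74. Every Trbp-cKO heart lay below every control heart, and the lowest control values were those of the 2 hearts with high mitochondrial shares. Tarbp2 fell by 1.76 (SE 0.14) on the log2 scale in sham hearts (adjusted p = 2.38e-05) and by 1.65 (SE 0.14) in TAC hearts (adjusted p = 1.17e-05). The exact two-sided permutation test of CPM gave p = 0.0286 for both, the smallest that 70 assignments allow. Relative to its control group, 29.6% ± 4.07 (SD, n = 4) of the transcript was left in sham and 31.9% ± 4.07 in TAC hearts, with single hearts between 26 and 36.1%. Both falls exceeded the 0.8 that the study set as its log2 threshold, and both passed under all 26 alternatives tried. Without control TAC 1 and 2, the fall in TAC hearts was 1.85. In the interaction the deletion's effect differed by 0.11 (SE 0.19, adjusted p = 0.815), or by -0.08 without control TAC 1 and 2, and TAC itself gave -0.26 (SE 0.13) in control and -0.14 (SE 0.13) in Trbp-cKO hearts, neither of which passed, and the former was -0.06 without control TAC 1 and 2. Since the Cre acts in cardiomyocytes, the remainder can hold transcripts of other ventricular cells, of unrecombined cardiomyocytes or of the deleted allele, and these cannot be told apart in a count per gene.

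A share of 11.7% of the 75-base words in Tarbp2 exons also occurs in other annotated genes, mainly the processed pseudogene Gm18584 (chr6:47432126-47433089). That row held 8 to 26 counts in control hearts and 2 to 8 in Trbp-cKO hearts, a small number beside the member counts above.

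Prkra (chr2:76629898-76648015, minus strand) encodes Pact, which can occupy the place of Trbp on Dicer. Its control sham hearts had 11.6, 13.1, 11.8 and 13 CPM, its control TAC hearts 9.53, 8.84, 12.8 and 13.6, its Trbp-cKO sham hearts 14.9, 12.2, 12 and 12.4 and its Trbp-cKO TAC hearts 13, 10.8, 11.5 and 10.2. All groups overlapped. The log2 difference between Trbp-cKO and control was 0.06 in sham (95% interval -0.23 to 0.34, adjusted p = 0.92) and 0.02 in TAC hearts (-0.26 to 0.31, adjusted p = 0.939), the latter being -0.23 without control TAC 1 and 2. Those intervals leave out a rise of Prkra as large as the fall of Tarbp2. The shares and ratios of both genes restate the fall of Tarbp2 and are given as a description. Tarbp2 was 53.8% ± 1.46 of the summed Tarbp2 and Prkra level per kilobase in control sham hearts and 51.9% ± 1.55 in control TAC hearts, against 24.9% ± 3.53 in the sham and 25.4% ± 4.24 in the TAC hearts of Trbp-cKO mice. On the log2 scale the Tarbp2 to Prkra ratio per kilobase was 0.22, 0.11, -1.60 and -1.57 in the 4 groups. The summed level of both genes was 13.2 ± 0.535 CPM per kilobase in sham and 11.4 ± 2.18 in TAC hearts of control mice, and 8.44 ± 0.65 in sham and 7.5 ± 0.394 in TAC hearts of Trbp-cKO mice.

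Dicer1 (chr12:104687742-104751952, minus strand), the nuclease that Trbp serves, varied little among control hearts. Its control TAC hearts lay between 43.5 and 44.7 CPM and its control sham hearts between 41.6 and 45.7. Trbp-cKO sham hearts spread from 40.6 to 48 CPM and Trbp-cKO TAC hearts had 56, 49.5, 44.6 and 52.2. In the last group 3 values stood above every control TAC heart and the remaining value lay among them. The log2 difference was 0.05 (95% interval -0.13 to 0.23) in sham and 0.20 (0.02 to 0.38) in TAC hearts, and with adjusted p = 0.876 and 0.19 neither passed. Under scaling by library size alone, which moves the median of all genes to 0.13, the TAC difference was 0.34 with an adjusted p of 0.039. Control TAC against control sham gave 0.01 (-0.17 to 0.19).

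Drosha (chr15:12824815-12935291, plus strand) makes the first cut. Control sham hearts had 39.5, 39.6, 43.7 and 39.9 CPM and control TAC hearts 27.2, 25.2, 35.3 and 38, so the groups did not overlap, and the 2 lowest values belonged to the hearts with high mitochondrial shares. The log2 difference was -0.37 (SE 0.13, adjusted p = 0.103) and did not pass, and the exact permutation p was 0.0286. Without these 2 hearts it was -0.15 (adjusted p = 0.81), and without control TAC 4 alone the adjusted p was 0.0337. Trbp-cKO sham hearts had 34, 41.6, 32.5 and 41.4 CPM and Trbp-cKO TAC hearts 42.2, 42.3, 41.6 and 33.3. In the Trbp-cKO TAC group against its control the difference was 0.34 (SE 0.13, adjusted p = 0.152), and 0.11 without control TAC 1 and 2.

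Dgcr8 (chr16:18253948-18289246, minus strand), the partner of Drosha, was among the genes that rose with TAC in control hearts. Control sham hearts had 14.9, 12.6, 13.5 and 14.4 CPM, and control TAC hearts had 20.2, 18.6, 15.6 and 16.1, each above every sham heart. The rise was 0.35 (SE 0.09) on the log2 scale, or 1.27-fold, with an adjusted p of 0.0399 by edgeR and of 0.00838 by DESeq2. The 2 highest values were again those of control TAC 1 and 2. Without both hearts the difference was 0.20 (adjusted p = 0.499), and the call also ended without control TAC 1 alone (0.27, adjusted p = 0.144), without control TAC 2 alone (0.32, adjusted p = 0.112) and without any one of the control sham hearts (0.31 to 0.38, adjusted p 0.0614 to 0.113). It held in 9 of 26 alternatives in all, with adjusted p from 0.00838 to 0.499, and in several fits that left out a heart of a group not compared the adjusted p was just above 0.05. Trbp-cKO sham hearts lay between 13.9 and 15.7 CPM and Trbp-cKO TAC hearts between 15.2 and 17.2, a difference of 0.16 (SE 0.09, adjusted p = 0.346), and the interaction was -0.19 (95% interval -0.47 to 0.09), or -0.04 without control TAC 1 and 2. The deletion gave 0.07 in sham and -0.12 in TAC hearts, the latter 0.02 without these hearts, and neither passed. Exons of Dgcr8 overlap Trmt2a on the other strand, and the strand used in counting is not given in the sources used here, so part of the Dgcr8 count could come from that gene.

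Xpo5 (chr17:46202782-46243598, plus strand) carries the hairpins out of the nucleus. It had 27.4 to 31.5 CPM in sham and 24.1 to 30.3 in TAC hearts of control mice, and 23.9 to 30.8 in sham and 35.3, 38.3, 33.1 and 24 CPM in TAC hearts of Trbp-cKO mice. The last group held the 3 highest values of all 16 hearts and also 1 of the lowest. Against control TAC the difference was 0.28 (SE 0.13, adjusted p = 0.235), and without Trbp-cKO TAC 4 it passed with an adjusted p of 0.0408. Without control TAC 1 and 2 it was 0.14 (adjusted p = 0.701). No other comparison of Xpo5 passed.

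The Argonaute genes bind the mature microRNA, and Ago2 is the one that can cut its target. Ago2 (chr15:73095844-73184935, minus strand) had 53.3, 52.6, 60.2 and 57.1 CPM in control sham hearts and 40.5, 52.3, 48.4 and 50.6 in Trbp-cKO sham hearts, which all lay below. Control TAC hearts had 40.8, 43.2, 50 and 53.9 CPM and Trbp-cKO TAC hearts 58.5, 58.4, 54.6 and 47.1, and these groups overlapped. The log2 difference by deletion was -0.22 (SE 0.11, adjusted p = 0.42) in sham and 0.22 (SE 0.11, adjusted p = 0.276) in TAC hearts, the latter being 0.06 (adjusted p = 0.847) without control TAC 1 and 2. The interaction of 0.44 (SE 0.16) had an unadjusted p of 0.0147 and an adjusted p of 0.203, and it was 0.29 without control TAC 1 and 2. With a clock gene score as a covariate, a summary of clock gene transcripts in each heart that is defined below, the interaction was 0.73 (adjusted p = 0.168) and the sham difference -0.46 (adjusted p = 0.279). Exons of Ago2 overlap Chrac1 on the other strand, with the same limit.

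Ago1 (chr4:126435012-126468583, minus strand) had 19.5, 21, 19.2 and 17.8 CPM in control sham and 20.8, 28.3, 21.5 and 26.9 in Trbp-cKO sham hearts. The ranges touched in a single pair of hearts. The difference of 0.33 (SE 0.10) had an unadjusted p of 0.00567 and an adjusted p of 0.132 and did not pass. Control TAC hearts, at 21.2 to 24 CPM, all lay above the control sham hearts (0.20, SE 0.10, adjusted p = 0.229, and 0.26 without control TAC 1 and 2). Trbp-cKO TAC hearts lay between 22.2 and 25 CPM.

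Ago3 and Ago4 complete the family. Ago3 gave -0.30 (SE 0.11, adjusted p = 0.194) in Trbp-cKO sham and -0.22 (SE 0.11, adjusted p = 0.241) in Trbp-cKO TAC hearts, and Ago4 gave -0.30 and -0.22 with SE 0.19. As a share of the 4 Argonaute transcripts per kilobase, Ago1 was 24.3% ± 1.69 (22.9 to 26.4) in sham and 29.1% ± 2.11 (26.7 to 31.5) in TAC hearts of control mice, and 32.5% ± 1.47 (30.4 to 33.8) in sham and 30.2% ± 2.37 (28.1 to 33.6) in TAC hearts of Trbp-cKO mice. Ago2 had 40.5% ± 1.94 in control sham hearts and 37.2% ± 1.71 in the sham hearts of Trbp-cKO mice. Within the control TAC group Ago1 had 31.5 and 30% in hearts 1 and 2 and 28 and 26.7% in hearts 3 and 4. The share of Ago1 in control sham hearts was below that in every heart of the other groups, with no gene of the family past the test. The summed level was 9.81 ± 0.374, 9.47 ± 1.13, 9.22 ± 1.22 and 9.73 ± 0.493 CPM per kilobase in the 4 groups and overlapped.

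**Figure D3:**
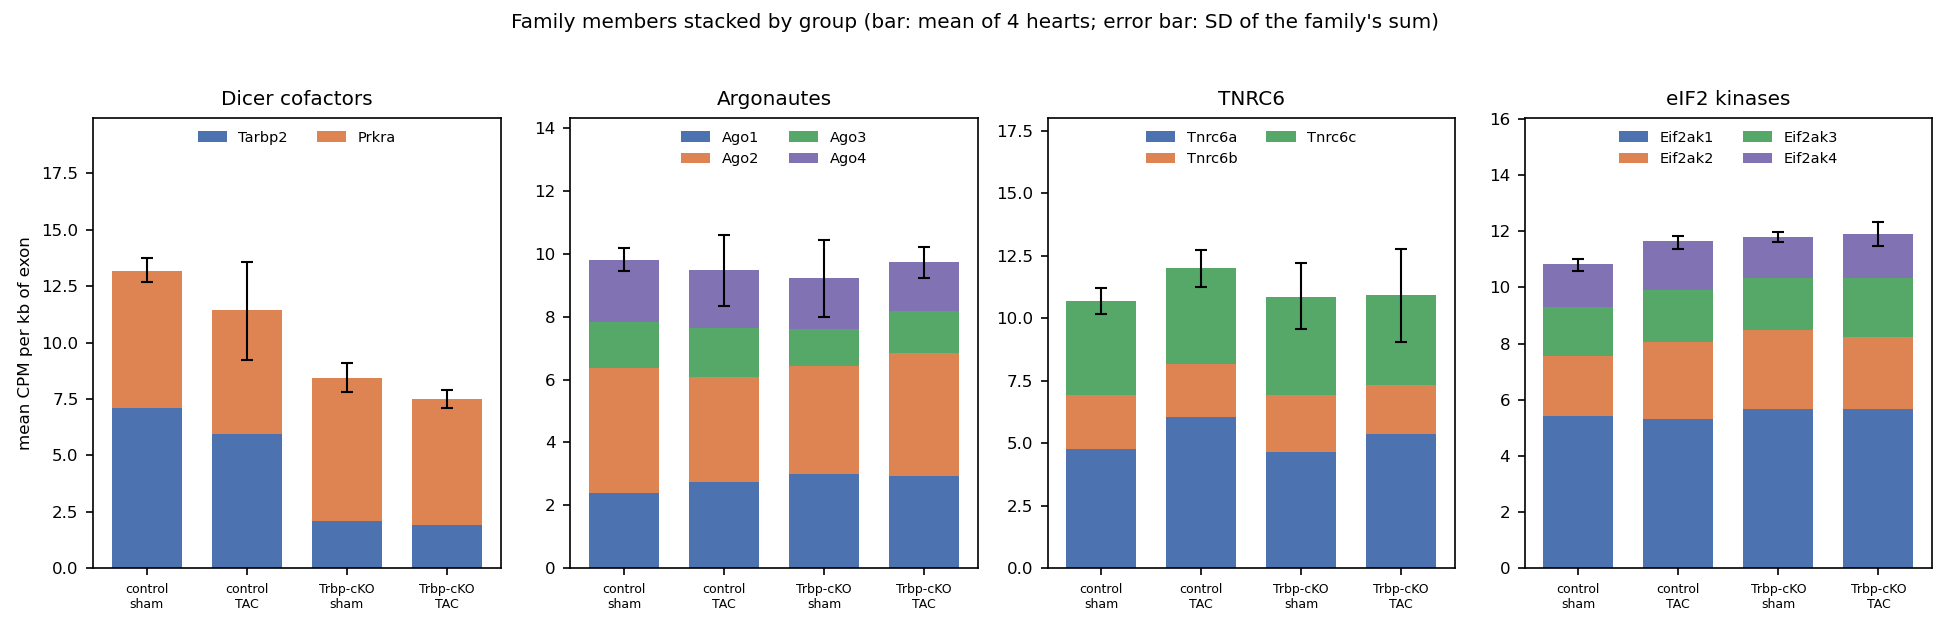
Mean CPM per kilobase of exon for the Dicer cofactors, the Argonautes, the TNRC6 scaffolds and the eIF2 kinases, stacked by group, with the SD of each family's sum over 4 hearts. The cofactor sum is lower in the sham and TAC hearts of Trbp-cKO mice (8.44 and 7.5) than in those of control mice (13.2 and 11.4), through Tarbp2. The Argonaute sums stay between 9.22 and 9.81.

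Tnrc6a (chr7:123123885-123195296, plus strand) encodes GW182, which links Argonaute to the deadenylases. Its hearts spread widely under TAC. Control sham hearts had 60.4, 65.1, 59.5 and 56.8 CPM, control TAC hearts 87.6, 81.2, 75 and 63.7, Trbp-cKO sham hearts 47.2, 63.1, 64.4 and 62.5, and Trbp-cKO TAC hearts 64.9, 60, 52.3 and 95.7. The control TAC difference of 0.35 (SE 0.17, adjusted p = 0.192) equalled that of Dgcr8 in size with a larger error, and it was 0.20 without control TAC 1 and 2, which held the 2 highest values of their group. The other comparisons lay between -0.17 and 0.20. Tnrc6b and Tnrc6c lay between -0.21 and 0.06 in the 4 pairwise comparisons, and Tnrc6a made up 44.4% ± 0.398 of the TNRC6 transcripts per kilobase in control sham and 50.3% ± 4.03 in control TAC hearts, where hearts 1 and 2 had 53.5 and 53.6% and hearts 3 and 4 had 48.6 and 45.3%.

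Eif2ak2 (chr17:78852564-78882573, minus strand) encodes PKR, whose kinase activity Trbp restrains. Its transcript was lowest in control sham hearts, at 11.6, 10.8, 10.2 and 10.7 CPM. Control TAC hearts had 15, 15.5, 13.9 and 12 CPM, Trbp-cKO sham hearts 13.6, 14.2, 15.9 and 13.7, and Trbp-cKO TAC hearts 12.2, 11.8, 13.3 and 15.3. All 12 hearts of the other groups were above the highest control sham heart, and those 3 groups overlapped each other. TAC raised it in control hearts by 0.38 (SE 0.10) on the log2 scale, or 1.3-fold, with an adjusted p of 0.0428 by edgeR. In Trbp-cKO sham hearts it was 0.41 (SE 0.10, 95% interval 0.19 to 0.63) or 1.32-fold above control sham, with an adjusted p of 0.0621 that misses the threshold. In Trbp-cKO TAC hearts it was -0.10 (SE 0.10, -0.32 to 0.12) relative to control TAC, or 0.02 without control TAC 1 and 2, and -0.12 (SE 0.10) relative to Trbp-cKO sham. The interaction was -0.50 (SE 0.15), with an unadjusted p of 0.00359 and an adjusted p of 0.114 by edgeR and 0.0296 by DESeq2. None of these differences reached 0.8 on the log2 scale, though the interaction was -0.83 (adjusted p = 0.12) with a clock gene score as a covariate.

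The Eif2ak2 calls depended on single hearts. The TAC call ended without control TAC 1 (0.34, adjusted p = 0.131), without control TAC 2 (0.32, adjusted p = 0.128), without both (0.25, adjusted p = 0.47) and without any one of the control sham hearts (0.35 to 0.40, adjusted p 0.0659 to 0.115), and it held in 9 of 26 alternatives, with adjusted p from 0.0116 to 0.47. Leaving out some of the hearts of the groups not compared also ended it, with adjusted p up to 0.0591. The Trbp-cKO sham difference, which uses neither of the hearts with high mitochondrial shares, passed in 7 of 26 alternatives, among them DESeq2 (adjusted p = 0.00754), edgeR's exact test on the groups compared (0.00816), a fit of these groups alone (0.0196) and the fit without control TAC 1 and 2 (0.40, adjusted p = 0.0358). Its log2 value stayed between 0.35 and 0.68 under all of them. The interaction passed under DESeq2, without control TAC 4 (-0.57, adjusted p = 0.0457) and without Trbp-cKO TAC 4 (-0.58, adjusted p = 0.0479), and it was -0.38 (adjusted p = 0.288) without control TAC 1 and 2.

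**Figure D4:**
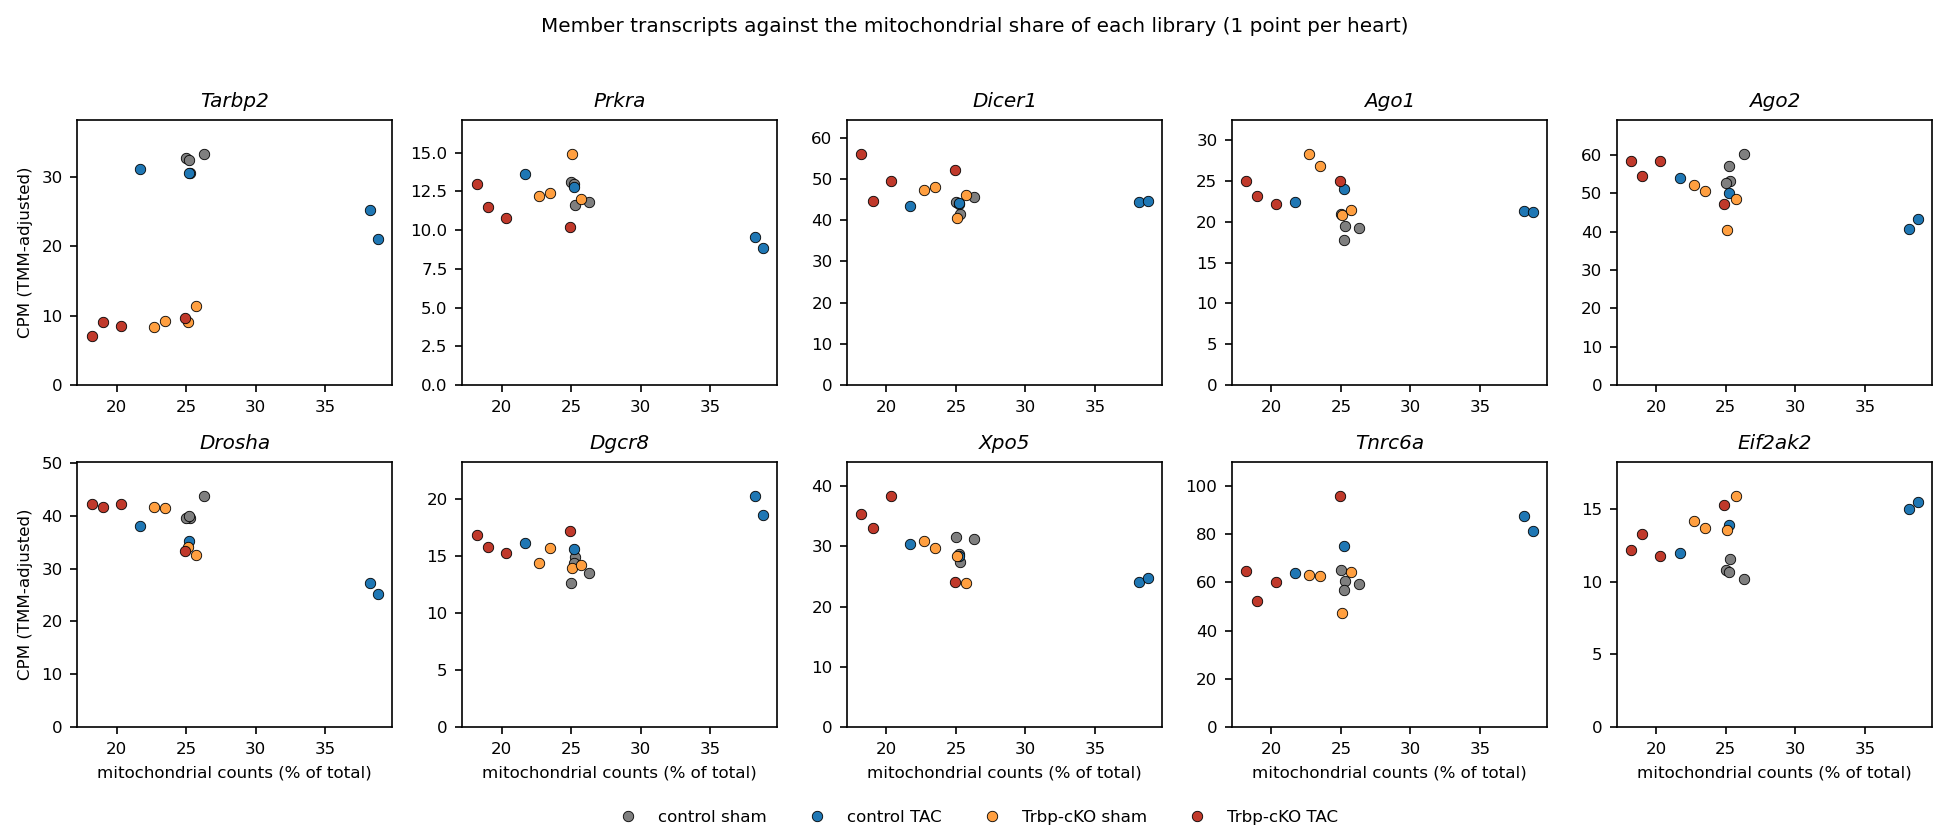
CPM of the 10 genes against the percentage of each library's counts on mitochondrial genes, 1 point per heart, coloured by group. Control TAC 1 and 2, at 38.2 and 38.8%, hold the lowest Drosha (27.2 and 25.2 CPM) and Prkra values and the highest Dgcr8 values (20.2 and 18.6 CPM) of all 16 hearts. Trbp-cKO TAC 4, at 24.9%, holds the lowest Drosha (33.3 CPM) and Prkra (10.2 CPM) and the highest Dgcr8 value (17.2 CPM) of its own group.

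The other eIF2 kinases did not pass. Eif2ak1 (HRI), Eif2ak3 (PERK) and Eif2ak4 (GCN2) lay between -0.14 and 0.20 in the 4 pairwise comparisons. Eif2ak4 varied most among hearts, with an SE of 0.21 against 0.10 for Eif2ak2, and its control TAC interval (-0.30 to 0.60) holds the Eif2ak2 value of 0.38. Eif2ak2 was 19.5% ± 0.973 of the 4 kinase transcripts per kilobase in sham and 23.6% ± 2.29 in TAC hearts of control mice, and 23.8% ± 1.81 in sham and 21.6% ± 2.01 in TAC hearts of Trbp-cKO mice. In control TAC hearts 1 to 4 that share was 24.8, 25.5, 23.8 and 20.4%. Eif2ak1 was the most abundant kinase transcript by this scale, at 5.44 ± 0.221 CPM per kilobase in control sham hearts. Exons of Eif2ak1 overlap Aimp2 and Ankrd61 on the other strand, those of Eif2ak2 overlap Gm26637 and those of Eif2ak3 overlap Gm43292. The limit given for Dgcr8 holds for these kinases too.

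Members were also compared with each other over the 16 hearts, as Pearson correlations of log2 CPM that are given as a description. The points share library, depth and group. Of 45 pairs, Ago2 and Drosha were closest (r = 0.85, and 0.85 after subtracting group means), followed by Drosha and Xpo5 (0.79 and 0.81) and Ago2 and Xpo5 (0.73 and 0.69). Eif2ak2 ran opposite to Ago2 (-0.73 and -0.66), Drosha (-0.70 and -0.81) and Xpo5 (-0.63 and -0.90). These values were 0.80, 0.80 and 0.62, and -0.66, -0.65 and -0.53, without control TAC 1 and 2. Drosha and Dgcr8 had r = -0.62 over all hearts and -0.08 without these 2, and Prkra and Drosha had 0.58 and -0.11. Tarbp2 and Prkra had -0.02 and, without the 2 hearts, 0.21.

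The genes whose log2 CPM most resembled that of Tarbp2, among 12943 genes with a mean log2 CPM of at least 1, were Rhd (r = 0.95), Tnnc1 (0.94), which encodes the troponin C of slow-twitch and cardiac muscle, Myh7b (0.93), a slow-type myosin heavy chain, Celsr2 (0.90) and Ppp1r9a (0.90). Tnnc1 averaged 1830 and 1727 CPM in control sham and control TAC hearts and 546 and 771 in Trbp-cKO sham and Trbp-cKO TAC hearts. Myh7b averaged 222, 244, 42.3 and 21.5 CPM in the same order. Within groups, the correlation with Tarbp2 was 0.60 for Tnnc1 and 0.05 for Myh7b. For Eif2ak2 the closest were Jam3 (0.93), Aldh3b1 (0.92), Oasl2 (0.92), an interferon-stimulated gene of the OAS family, Ppm1m (0.92) and Apobec3 (0.92), an antiviral deaminase. Their correlations within groups were 0.81 to 0.90, and over the 14 hearts without control TAC 1 and 2 they were 0.90 to 0.93, against 0.90 to 0.96 for the 5 genes nearest to Tarbp2. Oasl2 averaged 6.58, 14.8, 15.9 and 12.7 CPM in control sham, control TAC, Trbp-cKO sham and Trbp-cKO TAC hearts, and its window did not hold the letters AAANNGAAA, while 1 of the windows of Apobec3 did.

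The surrounding pathway was described with 7 lists of 91 genes, of which 90 were tested. No gene of nuclear processing and export (9 genes, among them the helicases Ddx5 and Ddx17) passed in any comparison by edgeR. Of all genes, 1.05 to 9.94% were called. In 4 comparisons 0 or 1 of the 9 had an unadjusted p under 0.05, beside 13.7 to 26.6% of all genes. Trbp-cKO TAC against control TAC had 2 of 9, near the 21.4% of all genes. All 9 genes of the list had log2 values below 0 in Trbp-cKO sham hearts, from -0.21 to -0.02 with a median of -0.09, beside 0.01 over all genes. None of the 10 tested genes of microRNA tailing and turnover passed either, beside the same 1.05 to 9.94% of all genes. At most 1 had an unadjusted p under 0.05 in each comparison, beside 13.7 to 26.6% of all genes.

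A list of Argonaute loading factors and other cofactors of the silencing complex held 12 genes, among them Ago3 and Ago4 themselves. In Trbp-cKO sham hearts 2 of them passed, both lower than in control sham, where 1.68% of all genes were called and 0.666% called lower. All 12 had log2 values below 0 with a median of -0.36, beside 0.01 over all genes, and 6 of 12 had an unadjusted p under 0.05, beside 13.7% of all genes. Without control TAC 1 and 2, 3 passed there, beside 3.41% of all genes, the addition being Stip1 (-0.92, adjusted p = 0.0265, against -0.91 and 0.0786 with all hearts). Hsp90aa1, the inducible cytosolic HSP90 that opens Argonaute for loading, had 293, 414, 442 and 578 CPM in sham and 222, 344, 264 and 308 in TAC hearts of control mice, and 185, 202, 195 and 161 in sham and 284, 309, 358 and 227 in TAC hearts of Trbp-cKO mice. The Trbp-cKO sham hearts were the lowest of all. Hsp90aa1 fell by 1.22 (SE 0.20, adjusted p = 0.00825) there, rose by 0.67 (SE 0.20, adjusted p = 0.0464) from Trbp-cKO sham to Trbp-cKO TAC hearts and had an interaction of 1.27 (SE 0.28, adjusted p = 0.0445). The first call held in 25 of 26 alternatives and ended with a clock gene score as a covariate, where the fold stayed at -1.29 (adjusted p = 0.202), the second in 12 of 26 and the third in 8 of 24, with an adjusted p of 0.073 without control TAC 1 and 2. Ptges3, the HSP90 cochaperone p23, fell by 0.55 (SE 0.12, adjusted p = 0.0362) in Trbp-cKO sham hearts, in 14 of 26 alternatives and not with the clock gene score (-0.52, adjusted p = 0.304). In control TAC hearts 1 of the 12 passed, beside 6.29% of all genes. It was the cochaperone gene Stip1 (HOP), which fell by 0.86 (SE 0.24, adjusted p = 0.0489), or by 0.52 (adjusted p = 0.506) without control TAC 1 and 2, and its call held in 8 of 26 alternatives. In that comparison 7 of the 12 had an unadjusted p under 0.05, beside 26.6% of all genes. The median of the 12 was -0.31 with 3 above 0, beside 0.02 over all genes. Without control TAC 1 and 2 this median was -0.16 with 5 above 0. In the Trbp-cKO TAC group against its control 0 of 12 passed by edgeR, with 2 at an unadjusted p under 0.05, beside 21.4% of all genes. Without control TAC 1 and 2, 1 passed there, Fkbp4, an HSP90-binding immunophilin (-1.18, adjusted p = 0.0201, against -0.64 and 0.267 with all hearts), and in that fit it also passed as lower from Trbp-cKO sham to Trbp-cKO TAC (adjusted p = 0.00795), where all hearts gave -0.99 (adjusted p = 0.0696). That fit called 3.98% of all genes in the former comparison and 14.7% in the latter.

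Among 26 silencing effectors, 1 passed in control TAC hearts, beside 6.29% of all genes. The decapping cofactor gene Edc3 rose there (0.39, SE 0.11, adjusted p = 0.0446, and 0.26 without control TAC 1 and 2). Cnot2, a subunit of the CCR4-NOT deadenylase, fell by 0.29 (SE 0.07, adjusted p = 0.0398) in Trbp-cKO sham hearts, from 31.9 to 34.2 CPM in control sham hearts down to 26.5 to 27.6, and it was -0.21 (adjusted p = 0.389) with the clock gene score. It was the 1 of 26 that passed there, where 1.68% of all genes were called and 0.666% called lower. From Trbp-cKO sham to Trbp-cKO TAC hearts 2 of 26 rose, near the 6.02% of all genes called higher, namely Pabpc1, the cytoplasmic poly(A)-binding protein (0.45, SE 0.13, adjusted p = 0.0419), and Eif4enif1, the eIF4E transporter (0.34, SE 0.09, adjusted p = 0.0268). None passed in the Trbp-cKO TAC group against its control by edgeR, where 7 of 26 had an unadjusted p under 0.05, near the 21.4% of all genes. Without control TAC 1 and 2, 1 of 26 passed there, near the 3.98% of all genes called in that fit. It was again Pabpc1 (0.49, adjusted p = 0.0323, against 0.26 and 0.276 with all hearts). Of the 4 calls with all hearts, Eif4enif1 held in 16 of 26 alternatives and the others in 9 to 11.

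Of 9 other double-stranded RNA binding genes, 2 rose in Trbp-cKO TAC over control TAC hearts, where 5.53% of all genes were called and 3.88% called higher. Zfr, a zinc finger protein that binds double-stranded RNA, had 57.6, 58.8, 58.3 and 58.6 CPM in control TAC and 90.1, 85.1, 86.7 and 77.5 in Trbp-cKO TAC hearts, with 61.3 to 69.7 in control sham and 50.7 to 65.6 in Trbp-cKO sham hearts. The Trbp-cKO TAC hearts stood above all the others. The rise was 0.54 (SE 0.09, adjusted p = 0.00356), it was 0.49 (SE 0.09, adjusted p = 0.00308) over Trbp-cKO sham hearts, and the interaction was 0.62 (SE 0.13, adjusted p = 0.0355). The first held in 25 of 26 alternatives, ending in a fit of the groups compared alone (adjusted p = 0.0775), the second in 26 of 26 and the third in 6 of 24, with an adjusted p of 0.0746 without control TAC 1 and 2. Stau1 rose by 0.30 (SE 0.08, adjusted p = 0.0466), in 6 of 26 alternatives and by 0.17 without control TAC 1 and 2.

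A list of 14 genes around eIF2 held the other eIF2 kinases, subunits of eIF2 and eIF2B, subunits of the eIF2α phosphatase and Dnajc3. A link of their changes to PKR was not tested. The largest values of the list were those of Ppp1r15a. It encodes GADD34, the stress-inducible phosphatase subunit that reverses eIF2α phosphorylation. It had 31.8, 33.2, 35.8 and 37.4 CPM in sham and 18.9, 30.1, 25.6 and 26.3 in TAC hearts of control mice, and 21.2, 25.4, 20.9 and 21.5 in sham and 43.3, 41.8, 46.5 and 61.3 in TAC hearts of Trbp-cKO mice. No control TAC or Trbp-cKO sham heart reached a control sham heart, and every Trbp-cKO TAC heart exceeded them all. Ppp1r15a fell by 0.64 (SE 0.14, adjusted p = 0.0371) with deletion in sham hearts and rose by 0.94 (SE 0.14, adjusted p = 0.00163) with deletion in TAC hearts, and the interaction was 1.57 (SE 0.20, adjusted p = 0.00255). From Trbp-cKO sham to Trbp-cKO TAC it rose by 1.12 (SE 0.14, adjusted p = 0.00017). The fall held in 13 of 26 alternatives and ended without any one of the control sham or Trbp-cKO sham hearts or Trbp-cKO TAC 3, with library size only, no filter, the replicate block and the clock gene score (-0.50, adjusted p = 0.362), the TAC rise in 25 of 26 (adjusted p = 0.0713 in a fit of the groups compared alone), the interaction in 23 of 24 (1.41, adjusted p = 0.104, with the clock gene score) and the last in 26 of 26. Dnajc3, an inhibitor of PKR and PERK known as p58IPK, had 61.8 to 71.2 CPM in sham and 49.9 to 62.1 in TAC hearts of control mice, and 48.6 to 53.3 in sham and 69.4, 53.1, 73.5 and 73.9 in TAC hearts of Trbp-cKO mice. It rose by 0.38 (SE 0.11, adjusted p = 0.0381) from Trbp-cKO sham to Trbp-cKO TAC hearts and had an interaction of 0.69 (SE 0.15, adjusted p = 0.0452), in 10 of 26 and 7 of 24 alternatives. With the clock gene score these values were 0.26 (adjusted p = 0.309) and 0.44 (adjusted p = 0.282). The other 12 of the 14 genes in the list did not pass in any comparison over all 16 hearts by edgeR. Of all genes, 1.68% were called for deletion in sham, 5.53% for deletion in TAC hearts and 6.29% for TAC in control hearts. From Trbp-cKO sham to Trbp-cKO TAC 9.94% of all genes were called and 6.02% of all genes called higher, and for the interaction 1.05% were called. Without control TAC 1 and 2, Eif2s2, which encodes the β subunit of eIF2, also passed from Trbp-cKO sham to Trbp-cKO TAC (0.35, adjusted p = 0.0275, against 0.36 and 0.0599 with all hearts). That fit called 14.7% of all genes in this comparison.

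The clock gene score took the mean log2 CPM of Arntl, Npas2 and Clock, centred on all hearts. From it the mean of Per1, Per2, Per3, Nr1d1, Nr1d2, Dbp, Tef and Ciart, centred likewise, was subtracted. The score was 0.815 to 1.965 in control sham hearts and -1.407 to -1.112 in Trbp-cKO sham hearts, without overlap. Control TAC hearts, at -0.843 to 0.264, also lay below every control sham heart, and Trbp-cKO TAC hearts had -0.96, -0.952, 1.73 and 0.88. The score thus moved with the groups in both comparisons with control sham. With it as a covariate, the genes that passed for deletion in sham hearts went from 336 to 10 of all tested, those for TAC in control hearts from 1256 to 1570 and those for the interaction from 209 to 6. In that fit, for deletion in sham hearts, Tarbp2 fell by 1.71 (adjusted p = 0.0188) and Eif2ak2 gave 0.68 (adjusted p = 0.167). Drosha and Xpo5 gave -0.36 and -0.37 there and 0.75 and 0.70 for the interaction, and neither passed.

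Other sensors of double-stranded RNA did not pass in any comparison by edgeR, with 1 to 3 of 10 at an unadjusted p under 0.05, where 13.7 to 26.6% of all genes lay. Their median log2 fold change was 0.51 in control TAC and 0.42 in the Trbp-cKO sham group against its control, -0.22 in Trbp-cKO TAC against control TAC, -0.28 in the Trbp-cKO TAC group against Trbp-cKO sham and -0.83 for the interaction, with 8, 9, 2, 1 and 2 of 10 above 0. Without control TAC 1 and 2 the medians were, in the same order, -0.04, 0.41, 0.13, -0.29 and -0.18, with 4, 9, 6, 1 and 2 above 0, so the 3 medians that use the control TAC group rested on these 2 hearts. The medians over all genes were 0.02, 0.01, -0.01, 0 and -0.01. Ddx58, which encodes RIG-I, had 14 to 16.4 CPM in sham and 26.4, 30.8, 12.9 and 16.3 in TAC hearts of control mice, and 15.2 to 23.6 in sham and 13.4 to 22.3 in TAC hearts of Trbp-cKO mice. Ifih1, which encodes MDA5, had 7.22 to 9.43, then 11.9, 13, 8.21 and 8.79, then 8.84 to 13.1 and 7.06 to 10.7 CPM in the same order. Oas2, an oligoadenylate synthetase, had 12.6 to 22.2, then 29.7, 51.1, 14.6 and 18.8, then 13.2 to 30.4 and 12.5 to 19 CPM. In 8 of the 10 genes of the list control TAC 1 and 2 both stood above the other control TAC hearts, as in Eif2ak2. In Mavs, the mitochondrial adaptor of these sensors, both stood below (21.4 and 18.7 against 48.4 and 53.8 CPM), and Oas3 did neither. The same split was not counted over all genes, so this describes the listed genes and is not shown to be particular to them. A low Mavs value also occurred outside control TAC 1 and 2. Trbp-cKO TAC 4 had 20.8 CPM, against 47.9 to 54 in the rest of its group, at a mitochondrial share of 24.9%.

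**Figure D5:**
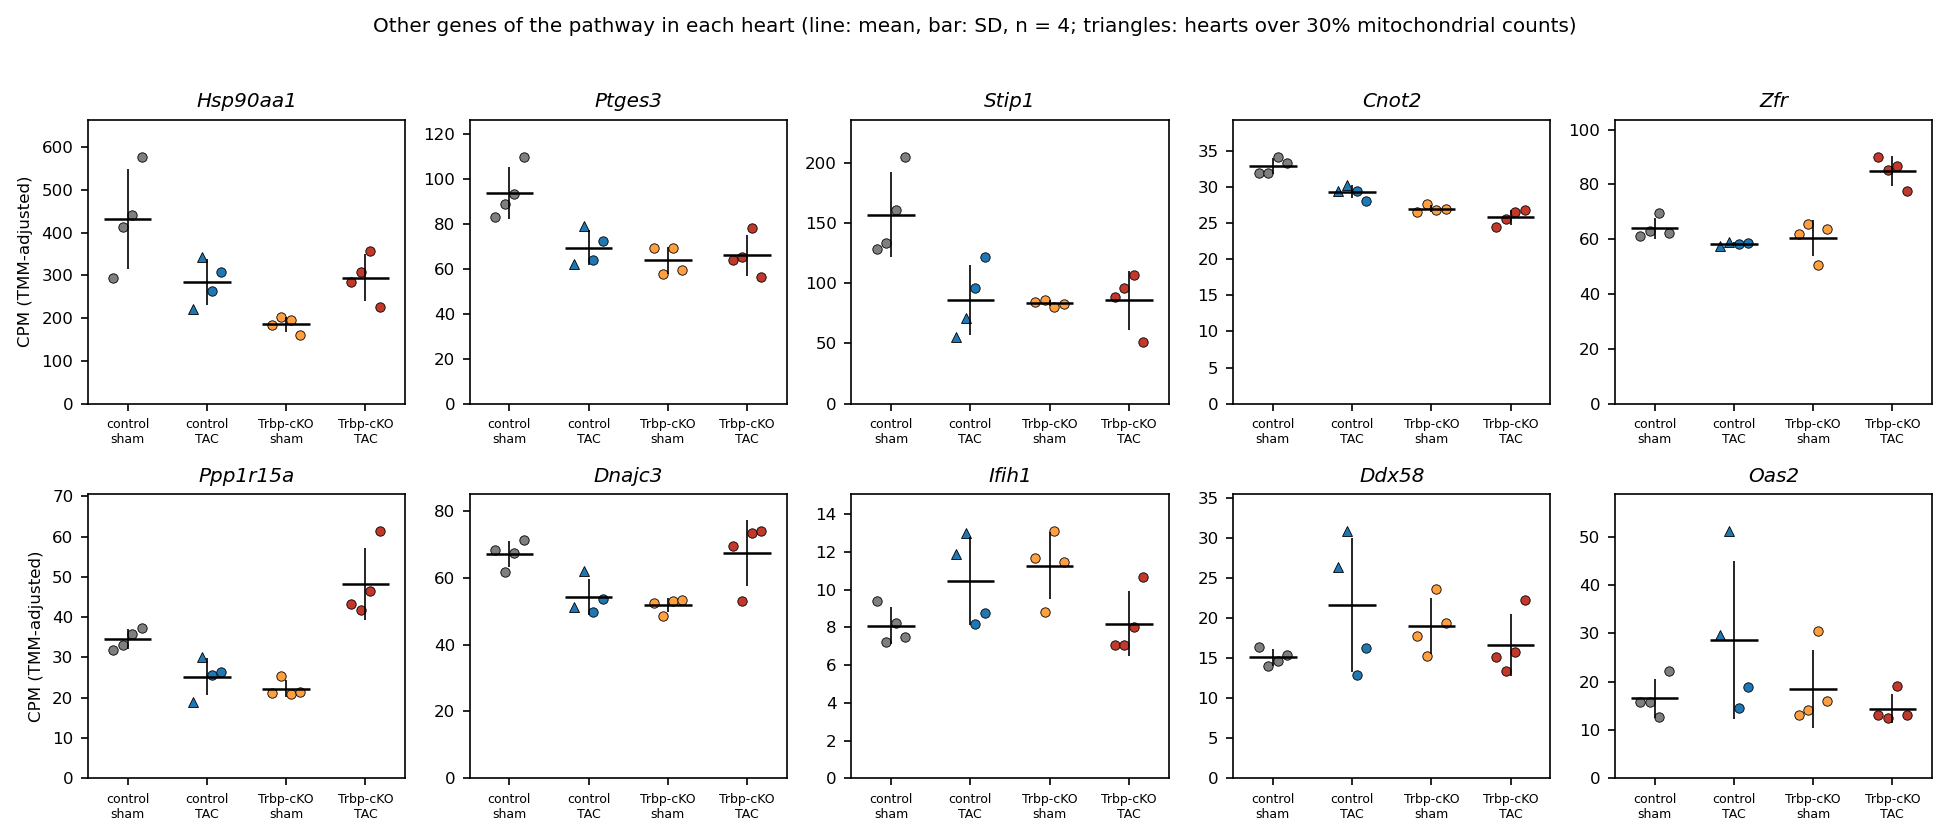
CPM of 10 further genes of the pathway in each of the 16 hearts, by group, with the mean (line) and SD (bar) of 4 hearts. Hsp90aa1 is lowest in the Trbp-cKO sham hearts (161 to 202 CPM), Zfr and Ppp1r15a are highest in the Trbp-cKO TAC hearts (77.5 to 90.1 and 41.8 to 61.3 CPM), and in Ifih1, Ddx58 and Oas2 the control TAC hearts split with the triangles on top.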

How the data were processed

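RNA-seq libraries came from the ventricles of 16 mice, 1 library per heart, with no pooling. The authors selected polyadenylated RNA, removed adapters (cutadapt 2.3), mapped reads by HISAT2 2.1.0 on GRCm38 and estimated abundance with StringTie 1.3.4 over GENCODE, per their methods and processing notes. The deposited values are counts per gene, derived by the authors from that coverage with the StringTie script, neither normalised nor filtered. The script takes a read length as a setting, whose value is not given in the sources used here, so counts may carry a common factor, and a fit with counts divided by 2 was run. Here edgeR 4.0.16 in R 4.3.3 was used on these counts, with filterByExpr by group, TMM and 1 robust quasi-likelihood model in which the 16 hearts share a dispersion estimate and each group has a coefficient. The p-values were adjusted by Benjamini-Hochberg over 19955 genes. CPM used TMM-adjusted library sizes, and single genes were also compared by exact permutation (Python 3.11.15). The script was tested on simulated data. Positions and exon lengths are from GENCODE M21, which held 55480 of the 55573 rows.

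The members and gene lists were chosen with earlier results of these data known. Named genes were the 10 members, 7 family genes, in each list at most the 3 genes with the largest change past the adjusted p in each comparison, and the 5 closest correlates of Tarbp2 and of Eif2ak2. Ifih1, Ddx58, Oas2, Mavs and Oas3 were picked from the sensing list, and Fkbp4 and Eif2s2 from theirs, after their values were seen. Ddx5 and Ddx17 were named only as examples of their list, and the clock genes only to define the score.

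Alternatives were library size scaling, the 2 groups alone, edgeR's exact test, DESeq2 1.42.0, no filter, a filter of 1 CPM in 4 hearts, halved counts, a replicate block, the clock score and leaving out each heart. Leaving out the 2 hearts over 30% mitochondrial counts was chosen after seeing the data.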

Additional observations from a re-analysis of the deposited data

Results flagged for a closer look

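In each group of 4 hearts the highest and lowest value of each member was set against the other 3. In 4 of 40 groups the gap to the nearest heart exceeded Dixon's 95% critical share of the group's range, which chance does in about 1 in 20 groups. Prkra stood at 14.9 CPM in Trbp-cKO sham 1 against 12 to 12.4 in the other hearts of its group. The same heart had the low Tnrc6a value of 47.2 CPM against 62.5 to 64.4. Drosha stood at 43.7 CPM in control sham 3 against 39.5 to 39.9, and at 33.3 CPM in Trbp-cKO TAC 4 against 41.6 to 42.3.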

How the results depend on the processing

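Of the members' log2 fold changes under all alternatives, 1200 kept direction and side of the threshold, 34 lost and 14 gained the call, and 32 changed sign, all of the last from small values that did not pass. Tarbp2 passed in both comparisons of deletion under every alternative. The cause of the shifts given here was not tested. The count of members that passed for TAC in control mice (2) was 0 with library size only, the groups alone, edgeR's exact test, no filter, the replicate block and without the hearts over 30% mitochondrial counts (1046, 416, 1439, 750, 511 and 149 of all genes against 1256), 1 with the clock score and 0 to 3 leaving out single hearts. For deletion in sham hearts (1) it was 2 with library size only, the groups alone, the exact test, DESeq2 and without the 2 hearts, and 1 to 2 leaving out single hearts. In those 5 fits the genes called among all tested also rose, from 336 to 552, 1189, 1654, 921 and 711. For deletion in TAC hearts (1) it was 3 with library size only, Dicer1 and Drosha (0.47, adjusted p = 0.046) being added and all genes called going from 1103 to 2026, and 1 to 2 leaving out single hearts. The interaction count (0) was 1 with DESeq2 (931 of all genes against 209) and 0 to 1 leaving out single hearts. Library size scaling moved the median of all genes to 0.11 and 0.13 in the comparisons of deletion.

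Signs changed as follows. For TAC in control mice, Prkra was -0.14 with all hearts and 0.09 without the 2 hearts. Dicer1 was -0.01 with DESeq2, -0.02 with no filter, -0.07 with the clock score and -0.03 to 0.02 leaving out single hearts. For deletion in sham hearts, Prkra was -0.21 and Dicer1 -0.07 with the clock score, Xpo5 0.02 and Tnrc6a 0.08 with library size only, Tnrc6a 0.23 with the clock score, and single hearts gave -0.03 to 0.09 for Prkra and -0.07 to 0.06 for Tnrc6a. For deletion in TAC hearts, library size only gave 0.02 for Dgcr8 and 0.05 for Eif2ak2, leaving out the 2 hearts gave -0.23 for Prkra, 0.02 for Dgcr8 and 0.02 for Eif2ak2, and single hearts gave -0.08 to 0.13 for Prkra. For TAC in Trbp-cKO mice, Ago1 was 0.01 with library size only and -0.11 to 0.05 leaving out single hearts, where Tnrc6a was -0.01 to 0.31. In the interaction, Tarbp2 was -0.08 without the 2 hearts, and Prkra was 0.01 with library size only, 0.30 with the clock score and -0.13 to 0.08 leaving out single hearts.

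With the replicate number as a block, Eif2ak2 and Dgcr8 in control TAC gave adjusted p of 0.0993 and 0.0749, and no other call among the members changed. Same-numbered hearts did not deviate together: 3 of 24 pairs correlated above 0.1 (range -0.43 to 0.21) and 1 of 16 hearts was closest to its own number. The lowest count of a member was 358, so counting error adds to the spread between hearts. SE were 0.08 to 0.17 in the pairwise comparisons, so differences the size of the Eif2ak2 values lie near the threshold.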
